A study of Homo sapiens with 12 samples.

Results

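Sterol and fatty acid synthesis was followed through 32 genes in 4 related human lines of breast epithelium, the MCF10 lines. The genes were taken by symbol from the deposited expression table, where all 32 were found among 59427 symbols, and they were divided into 18 enzymes of sterol synthesis, 5 genes of regulation and sterol transport, and 9 fatty acid genes. All 32 reached at least 1 TPM (transcripts per 1000000, a level scaled for transcript length and library size) in at least 1 line, as did 13108 symbols in all, which are the genes compared below.

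Together the lines stand for stages in the progression of breast cancer. The immortalised line MCF10A forms no tumours and represents normal epithelium. MCF10AT1 carries an activated HRAS that transformed it, MCF10DCIS stands for ductal carcinoma in situ and MCF10CA1a for metastatic disease. The 3 derived lines descend from MCF10A, and each stage is represented by 1 line, so a stage and the history of its line cannot be told apart. By their known pedigree, MCF10DCIS and MCF10CA1a were established from xenografts of MCF10AT1, so the activated HRAS belongs to the history of all 3 derived lines. Per the labels, all lines shared 1 culture medium, which held insulin, EGF, hydrocortisone, cholera toxin and horse serum. Serum brings lipoproteins, and no lipid-depleted culture was compared. The labels give 3 libraries per line, but the values analysed are the authors' mean TPM per line. No value therefore has an SD, the spread between libraries could not be used to judge any difference, no p-value is given, and the sequencing depth is unknown. Differences are those of log2(TPM + 1), which understates the change of genes with low levels, and a gene is counted as higher or lower at a difference of at least 1, that is 2-fold. The comparisons of the 3 derived lines with MCF10A share its values and are not independent of each other.

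Cholesterol is built from acetyl-CoA by way of mevalonate, farnesyl diphosphate, squalene and lanosterol, and the same acetyl-CoA is the start of fatty acid synthesis. Most enzymes of both routes are induced by the SREBP transcription factors, which the SREBF1 and SREBF2 genes encode. SREBPs are held in the endoplasmic reticulum by INSIG proteins when sterols are plentiful and are escorted to the Golgi by SCAP for cleavage when sterols are scarce, so that the activity of the factors is set largely after transcription. In epithelial cells the products serve membranes, and farnesyl diphosphate also supplies the lipid anchor of RAS proteins.

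The stretches upstream of 4 member genes are shown. SREBF2 is itself a known SREBP target, and MVD, LSS and SCD serve as examples of the sterol enzymes and fatty acid genes. RefSeq promoter windows (GRCh38.p14, 250 bases before to 50 after the start) were matched by symbol for 28 of the 32 members, with 40 windows in all; ACAT2, FASN, FDFT1 and SQLE had no entry. The bases printed lie before the RefSeq start and outside annotated exons of protein-coding genes, 5′ to 3′ on the gene's strand. They are chr22:41832855-41833078 (plus strand) for SREBF2, chr16:88663162-88663341 (minus strand) for MVD, chr21:46228825-46229024 (minus strand) for LSS and chr10:100346983-100347123 (plus strand) for SCD. Capitals mark matches, on either strand, to TCACNCCAC, the core of the sterol regulatory element that SREBPs bind, and to CCAAT, the box bound by NF-Y, a frequent partner of SREBPs; no matches of these motifs overlapped.
SREBF2: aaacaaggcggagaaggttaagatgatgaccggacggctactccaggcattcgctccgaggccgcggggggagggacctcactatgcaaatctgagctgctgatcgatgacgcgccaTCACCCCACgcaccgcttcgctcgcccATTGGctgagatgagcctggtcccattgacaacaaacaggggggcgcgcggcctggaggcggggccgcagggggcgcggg
MVD: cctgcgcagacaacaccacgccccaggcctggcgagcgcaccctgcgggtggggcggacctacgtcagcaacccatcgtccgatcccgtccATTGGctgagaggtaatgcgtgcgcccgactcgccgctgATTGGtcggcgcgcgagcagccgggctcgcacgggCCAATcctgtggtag
LSS: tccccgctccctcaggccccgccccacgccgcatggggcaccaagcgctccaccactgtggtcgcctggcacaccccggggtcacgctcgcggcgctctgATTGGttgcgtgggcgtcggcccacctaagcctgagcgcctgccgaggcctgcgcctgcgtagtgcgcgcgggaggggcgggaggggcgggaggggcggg
SCD: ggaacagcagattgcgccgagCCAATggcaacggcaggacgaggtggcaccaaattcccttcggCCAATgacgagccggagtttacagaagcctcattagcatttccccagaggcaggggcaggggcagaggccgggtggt
The sterol regulatory element core was found in SREBF2 alone, that is in 1 of 28 members (3.57%), against 1.39% of the 27305 genes of the table that had a window. CCAAT was found in 21 of 28 members (75.0%), against 39.7% of all genes, and in 13 of the 15 sterol enzymes with a window. MVD held 3 CCAAT matches, SCD 2, and LSS and SREBF2 1 each. GGGCGG, the GC box bound by SP1, was found in 27 of 28 members (96.4%), against 48.3% of all genes, and CACGTG, an E-box, in 4 of 28 (14.3%), against 8.77%; all 4 motifs were searched on both strands. Letters that match are a description of these windows and do not show that a factor was bound.

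The lines differed in how much of the TPM was left for genes of this kind. Structural and small non-coding RNAs held 66.0% of the TPM in MCF10DCIS, and 57.6%, 60.0% and 59.8% in MCF10A, MCF10AT1 and MCF10CA1a. The median difference of all 13108 genes from MCF10A was -0.066, -0.38 and -0.074 in MCF10AT1, MCF10DCIS and MCF10CA1a. That displacement bears on every difference of MCF10DCIS, and the second scale used below, rescaled TPM, brings the genes other than structural and small non-coding, mitochondrially encoded and ribosomal protein genes to 1000000 in each line. On it the medians of all genes were 0.041, -0.093 and 0.047 in the same order of derived lines. Of 8 epithelial markers, 7 reached 1 TPM in every line, with KRT19 under 1 TPM in the 3 derived lines and TP63 in MCF10A. The 5 adipocyte markers summed to 0.519 TPM in MCF10A, 0.897 TPM in MCF10AT1, 0.242 TPM in MCF10DCIS and 4.16 TPM in MCF10CA1a. The sum in MCF10CA1a was mostly FABP4 at 3.49 TPM, and ADIPOQ was at 0 in all 4 lines; the part of FABP4-positive cells in the results was not tested. Leukocyte, fibroblast and endothelial markers summed to at most 6.41 TPM in any line and hepatocyte markers to at most 0.0387 TPM. In bulk RNA, fewer cells of a type and less RNA per cell cannot be told apart.

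**Figure D1:**
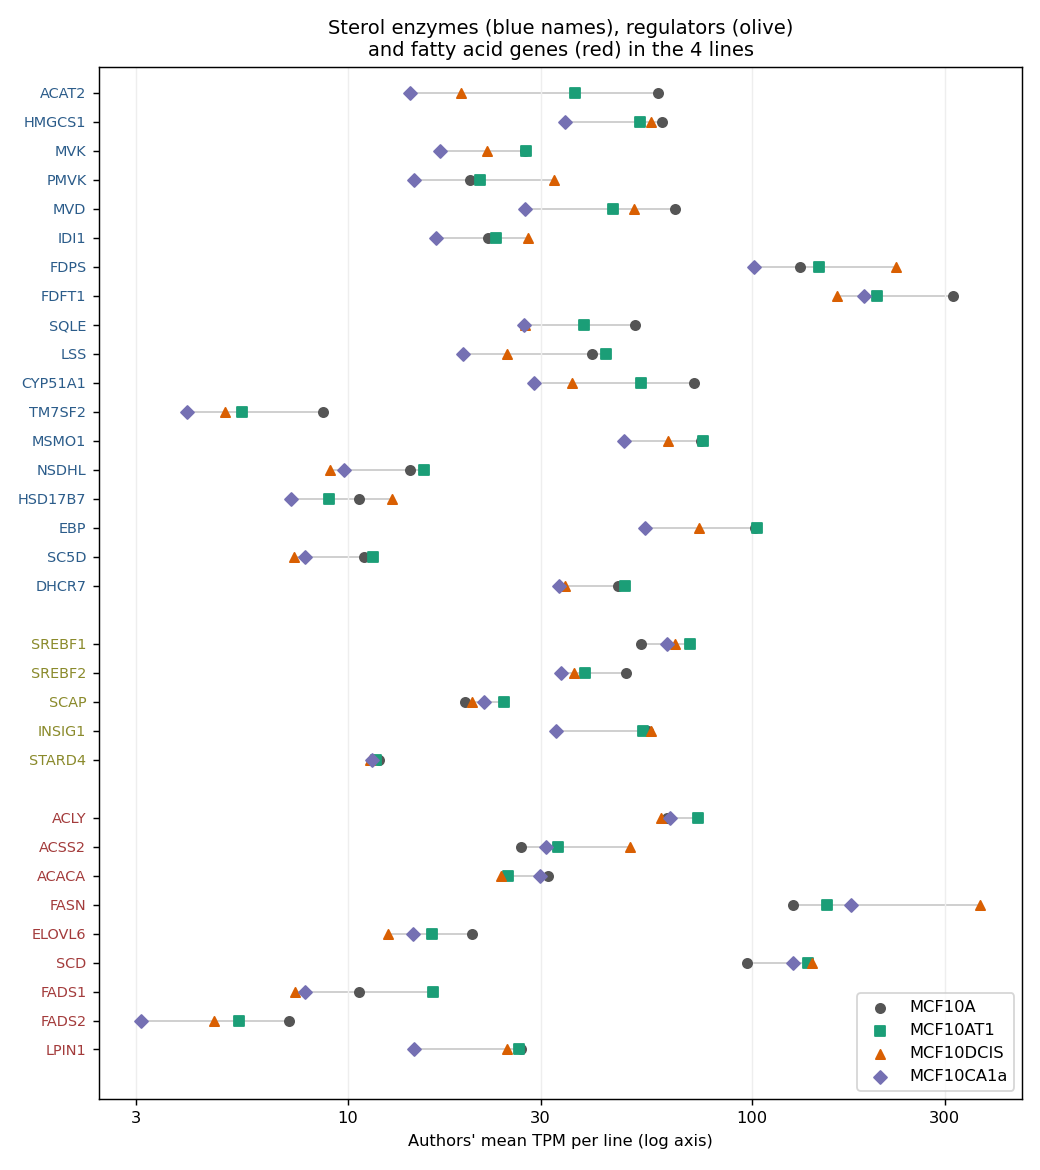
Authors' mean TPM of the 32 genes (log scale) in MCF10A, MCF10AT1, MCF10DCIS and MCF10CA1a, with the sterol enzymes in blue, the regulators in olive and the fatty acid genes in red. Each point is 1 mean without an error; most sterol enzymes have their lowest point in MCF10CA1a, and FASN stands out in MCF10DCIS at 368 TPM.

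Both SREBP genes were measured in every line, and with deposited TPM they differed from MCF10A in opposite directions in the 3 derived lines; with median-of-ratios scaling SREBF2 was level in MCF10DCIS, at 0.026. SREBF1, whose main products drive fatty acid genes, was at 53.1 TPM in MCF10A, 70.2 TPM in MCF10AT1, 64.4 TPM in MCF10DCIS and 61.6 TPM in MCF10CA1a. SREBF2, whose product drives mainly the sterol enzymes, was at 48.9, 38.6, 36.3 and 33.8 TPM in the same order of lines. SREBF1 was lowest, and SREBF2 highest, in MCF10A. The ratio of SREBF1 to SREBF2 within a line, which no scaling of that line can change, was 1.09 in MCF10A, and 1.82, 1.78 and 1.82 in MCF10AT1, MCF10DCIS and MCF10CA1a. The 3 derived lines were close to each other in this ratio, and MCF10A lay apart from them. The single differences from MCF10A were below 2-fold, at 0.40, 0.27 and 0.21 for SREBF1 and -0.34, -0.42 and -0.52 for SREBF2.

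SREBF1 lies on chromosome 17 (17810399 to 17837002, minus strand, GRCh38), where the median difference of its 50 nearest tested genes was 0.63, 0.30 and 0.73 in MCF10AT1, MCF10DCIS and MCF10CA1a. SREBF1 was therefore not above its neighbourhood in any derived line. SREBF2 lies on chromosome 22 (41833079 to 41907308, plus strand), and its neighbours had medians of -0.020, -0.43 and -0.16 in the same order. SREBF2 was below its neighbours in MCF10AT1 and MCF10CA1a and level with them in MCF10DCIS. With rescaled TPM the difference of SREBF2 in MCF10DCIS was -0.061. Of the exon bases of SREBF1, 6.92% overlap RAI1 on the other strand.

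SCAP, the escort of the SREBPs, was at 19.5 TPM in MCF10A, 24.3 TPM in MCF10AT1, 20.3 TPM in MCF10DCIS and 21.7 TPM in MCF10CA1a. INSIG1, which retains SCAP and is itself an SREBP target, was at 55.2, 53.9, 56.4 and 32.7 TPM. MCF10CA1a stood apart from the other 3 lines in INSIG1, with a difference of -0.74 from MCF10A, beside a median of -0.63 for its neighbours on chromosome 7. STARD4, a carrier of sterol between membranes, had the most even deposited levels of the members, with 11.9, 11.7, 11.4 and 11.5 TPM, a highest value 1.05 times the lowest. With rescaled TPM its difference from MCF10A was 0.30 in MCF10DCIS, and STARD4 too is a known SREBP target. As a group, the 5 genes had median differences of -0.022 in MCF10AT1, 0.030 in MCF10DCIS and -0.049 in MCF10CA1a, against -0.066, -0.38 and -0.074 for all genes.

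Among the sterol enzymes, MCF10CA1a was the low line. The 18 enzymes summed to 1131 TPM in MCF10A, 961 TPM in MCF10AT1, 892 TPM in MCF10DCIS and 655 TPM in MCF10CA1a. MCF10CA1a held the lowest level of the 4 lines for 15 of the 18, whereas 11.5% of all tested genes had their lowest level there. The other 3 enzymes, FDFT1, NSDHL and SC5D, were lowest in MCF10DCIS, as were 57.3% of all genes. With rescaled TPM all 18 were lowest in MCF10CA1a, against 16.6% of all genes. Near ties with MCF10DCIS are among these counts. FDFT1 was at 610 in MCF10CA1a against 612 in MCF10DCIS with rescaled TPM, and SQLE at 27.3 against 27.5 with deposited TPM. Every one of the 18 was below MCF10A in MCF10CA1a on both scales, as were 56.1% of all genes with deposited TPM and 46.6% with rescaled TPM. The median difference of the enzymes was -0.70 with deposited and -0.57 with rescaled TPM, against -0.074 and 0.047 for all genes. These differences were mostly moderate in size. Counted at 2-fold, 4 of the 32 members were lower and 0 higher in MCF10CA1a than in MCF10A, against 7.14% and 5.97% of all genes; all 4 were sterol enzymes. At 1.5-fold, 11 of the 18 enzymes and 14 of the 32 members were lower, against 17.6% of all genes, and 0 members were higher, against 13%. With rescaled TPM, 3 members were lower at 2-fold, ACAT2, CYP51A1 and MVD, against 7.77% of all genes. With 0.1 instead of 1 added to deposited TPM, TM7SF2 and the fatty acid gene FADS2 also passed 2-fold in MCF10CA1a, at -1.10 and -1.19.

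The 4 genes past 2-fold in MCF10CA1a by log2(TPM + 1) act at different steps of the route, those of LSS and CYP51A1 being successive. ACAT2, the cytosolic thiolase that joins acetyl-CoA units at its start, was at 58.7 TPM in MCF10A, 36.4 TPM in MCF10AT1, 19.1 TPM in MCF10DCIS and 14.2 TPM in MCF10CA1a. Its level was lower in each later line of the series, with differences from MCF10A of -0.67, -1.57 and -1.97. ACAT2 lies on chromosome 6 (159760328 to 159779055, plus strand), among genes whose median differences were 0.11, -0.23 and 0.11. Of its exon bases, 26.5% overlap SOD2 and 9.23% overlap TCP1, both on the opposite strand. SOD2, at 37.8 TPM in MCF10CA1a against 23.05 TPM in MCF10A, and TCP1, at 153 TPM against 120 TPM, were both higher in MCF10CA1a. The kit was stranded, but the strand setting of the authors' counting is not given in the sources used here.

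CYP51A1, which removes the first methyl group from lanosterol, was at 72.0, 53.1, 35.9 and 28.95 TPM in MCF10A, MCF10AT1, MCF10DCIS and MCF10CA1a. It shared with ACAT2 a lower level in each later line of the order listed, which is not an order of descent. SQLE, TM7SF2, SREBF2, FADS2 and LPIN1 had the same order with deposited TPM. The differences of CYP51A1, -0.43, -0.98 and -1.28, stood beside neighbour medians of -0.63, -1.03 and -0.65 on chromosome 7 (92112151 to 92134803, minus strand). In MCF10AT1 and MCF10DCIS CYP51A1 was thus not below its chromosomal surroundings, and in MCF10CA1a it was. MVD, the decarboxylase that forms isopentenyl diphosphate, was at 64.5, 45.4, 51.1 and 27.5 TPM in the same order. On chromosome 16 (88651935 to 88663161, minus strand) it differed from MCF10A by -0.50, -0.33 and -1.20, beside neighbour medians of -0.45, -0.77 and -0.59. LSS, which closes squalene epoxide into lanosterol, was at 40.3, 43.6, 24.8 and 19.2 TPM. Its difference of -1.03 in MCF10CA1a was -0.91 with rescaled TPM, short of 2-fold, while its neighbours on chromosome 21 (46188141 to 46228824, minus strand) had a median of -0.041. The part of chromosome copy number in these neighbour medians was not tested.

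Set against their own 50 nearest genes, all 18 sterol enzymes were lower in MCF10CA1a than in MCF10A, with values between -2.08 and -0.23 and a median of -0.50 (difference of the gene minus that of its neighbours). In MCF10AT1 and MCF10DCIS the enzymes were divided evenly, 9 above and 9 below their neighbours.

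**Figure D2:**
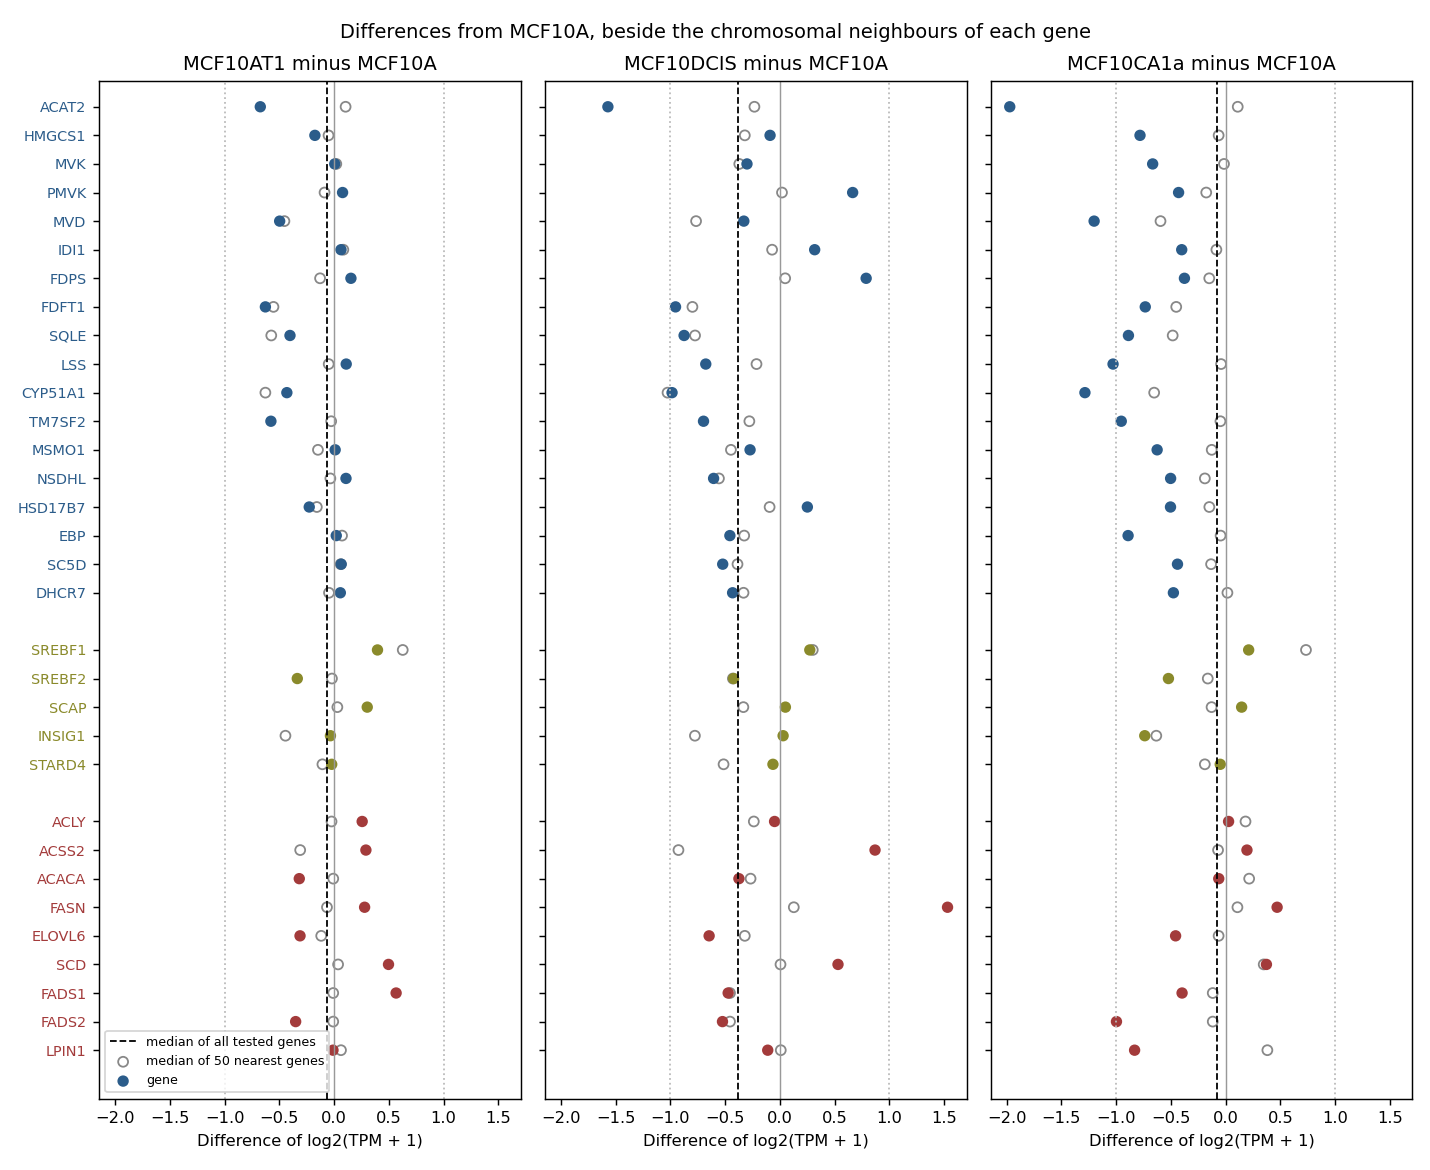
Difference of log2(TPM + 1) from MCF10A for each gene in MCF10AT1, MCF10DCIS and MCF10CA1a, with filled points for the gene, open circles for the median of its 50 nearest tested genes, a dashed line for the median of all tested genes and dotted lines at a difference of 1 in either direction. In MCF10CA1a all 18 sterol enzymes lie left of 0 and of their own open circle; in MCF10DCIS FASN lies at 1.53 and ACAT2 at -1.57.

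In MCF10DCIS the earlier and the later enzymes of the sterol route differed. Their division at farnesyl diphosphate was not among the groups planned beforehand. The 7 enzymes from acetyl-CoA to farnesyl diphosphate summed to 384 TPM in MCF10A, 353 TPM in MCF10AT1, 437 TPM in MCF10DCIS and 225 TPM in MCF10CA1a. The 11 enzymes from squalene to cholesterol summed to 747, 608, 455 and 430 TPM in the same order of lines. MCF10DCIS was the highest line in the first sum, which rested on FDPS: without it, a comparison added after the data were seen, the sum was 209 TPM in MCF10DCIS against 253 TPM in MCF10A, or 788 against 737 with rescaled TPM. With all 7 enzymes the rescaled sum was 1648 in MCF10DCIS against 1121 in MCF10A. The second sum was close in MCF10DCIS and MCF10CA1a with deposited TPM alone, since the rescaled sums were 1717 in MCF10DCIS, 1386 in MCF10CA1a and 2178 in MCF10A. The median difference of MCF10DCIS from MCF10A was -0.089 for the first 7 enzymes and -0.60 for the other 11, against -0.38 for all genes. With rescaled TPM these medians were 0.28 and -0.28, against -0.093. Relative to their chromosomal neighbours, 6 of the 7 were higher and 8 of the 11 lower. The exception among the 7 was ACAT2. In all, 14 of the 18 enzymes were below MCF10A in MCF10DCIS with deposited TPM, as were 75.3% of all genes.

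FDPS, the synthase of farnesyl diphosphate, was at 132 TPM in MCF10A, 146 TPM in MCF10AT1, 228 TPM in MCF10DCIS and 101 TPM in MCF10CA1a. PMVK, the phosphomevalonate kinase, was at 20.0, 21.2, 32.4 and 14.6 TPM in the same order. Both were highest in MCF10DCIS and lowest in MCF10CA1a. Their differences of 0.79 and 0.67 in MCF10DCIS were 1.16 and 1.05 with rescaled TPM, past 2-fold on that scale but not with deposited TPM. FDPS and PMVK both lie on chromosome 1, FDPS from 155308748 to 155320666 and PMVK from 154924734 to 154936991, close to each other. With deposited TPM their neighbours had medians of 0.049 and 0.020 in MCF10DCIS, against -0.38 for all genes. Minus their neighbours, FDPS was at 0.74 and PMVK at 0.65, both short of 2-fold. IDI1, the isomerase ahead of FDPS, was also highest in MCF10DCIS, at 27.9 TPM against 22.2 TPM in MCF10A. HMGCS1, which forms HMG-CoA, was at 60.0, 53.0, 56.3 and 34.5 TPM, and MVK, the mevalonate kinase, at 27.5, 27.6, 22.1 and 16.9 TPM. Both were lowest in MCF10CA1a, and in MCF10DCIS their sign against MCF10A depended on the scale.

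FDFT1, the squalene synthase that draws on farnesyl diphosphate, had the highest level of the sterol enzymes in MCF10A. It was at 315 TPM in MCF10A, 204 TPM in MCF10AT1, 162 TPM in MCF10DCIS and 189 TPM in MCF10CA1a, so all 3 derived lines were below MCF10A. The ratio of FDPS to FDFT1 within a line was 0.417 in MCF10A, and 0.719, 1.40 and 0.535 in MCF10AT1, MCF10DCIS and MCF10CA1a, and only in MCF10DCIS did FDPS exceed FDFT1. SQLE, the squalene epoxidase, was at 51.3, 38.5, 27.5 and 27.3 TPM. FDFT1 and SQLE both lie on chromosome 8, where differences of -0.63 and -0.40 in MCF10AT1 and -0.95 and -0.87 in MCF10DCIS stood beside neighbour medians of -0.55 and -0.57 in MCF10AT1 and -0.80 and -0.77 in MCF10DCIS. Their lower levels in those lines were close to those of the genes around them.

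Most later enzymes of the route were nearly level between MCF10AT1 and MCF10A and had lower deposited TPM in MCF10DCIS and MCF10CA1a. EBP, the sterol isomerase, was at 102, 103, 74.0 and 54.5 TPM in MCF10A, MCF10AT1, MCF10DCIS and MCF10CA1a. MSMO1, the C4-methyl oxidase, was at 75.1, 75.6, 62.0 and 48.3 TPM, and DHCR7, the reductase of 7-dehydrocholesterol, at 46.8, 48.7, 34.4 and 33.3 TPM. With rescaled TPM, MSMO1 was at 234 in MCF10DCIS against 219 in MCF10A, so its sign there depended on the scale. NSDHL, a decarboxylating dehydrogenase, was at 14.3, 15.5, 9.05 and 9.79 TPM, and SC5D, a desaturase, at 10.99, 11.5, 7.35 and 7.84 TPM, both lowest in MCF10DCIS. TM7SF2, a sterol reductase, was already lower in MCF10AT1, at 5.49 TPM against 8.68 TPM in MCF10A, and was at 4.002 TPM in MCF10CA1a. HSD17B7, the keto-reductase of the C4-demethylation steps and also on chromosome 1, was the only one of the 11 later enzymes with a higher deposited TPM in MCF10DCIS than in MCF10A, at 12.9 TPM against 10.7 TPM. Its unprocessed pseudogene HSD17B7P2 reached at most 4.88% of its TPM in any line.

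**Figure D3:**
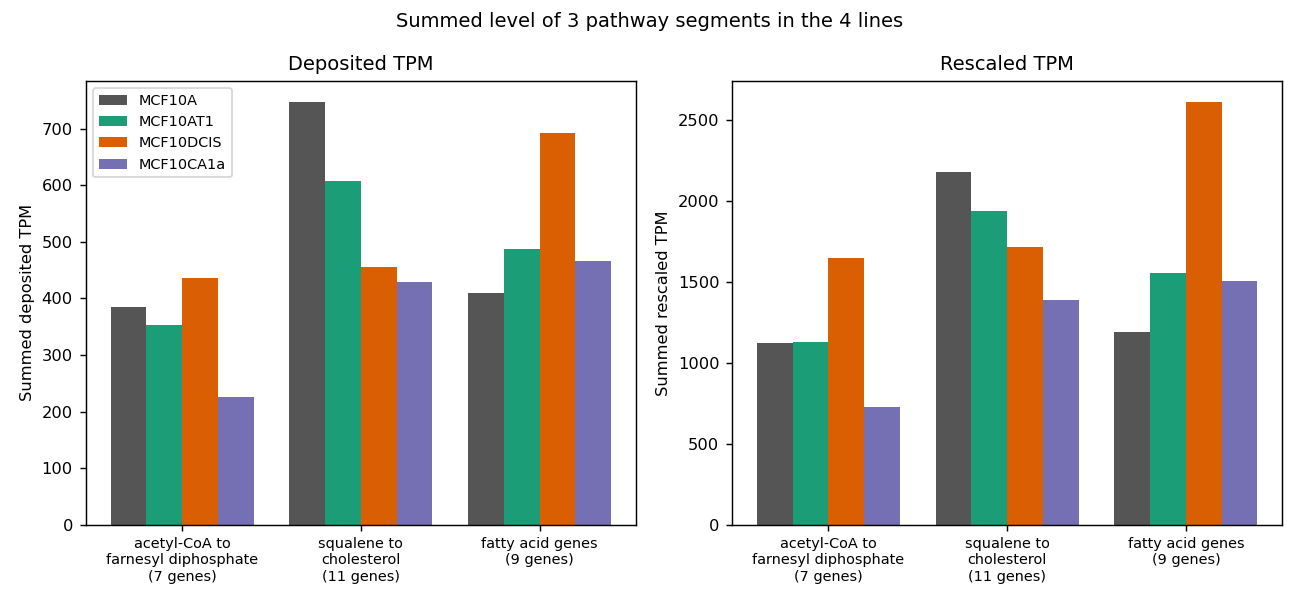
Summed TPM of the 7 sterol enzymes up to farnesyl diphosphate, the 11 enzymes from squalene on and the 9 fatty acid genes in the 4 lines, with deposited TPM and with rescaled TPM; bars start at 0 and are sums of authors' means without errors. On both scales the first sum, to which FDPS gives 228 of 437 deposited TPM in MCF10DCIS, is highest in that line and both sterol sums are lowest in MCF10CA1a.

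Fatty acid genes were led by FASN in MCF10DCIS. FASN, the fatty acid synthase, was at 127 TPM in MCF10A, 154 TPM in MCF10AT1, 368 TPM in MCF10DCIS and 176 TPM in MCF10CA1a. MCF10DCIS stood apart from the other 3 lines, which lay within 127 to 176 TPM. The difference of MCF10DCIS from MCF10A was 1.53, or 1.91 with rescaled TPM, and 98.6% of all tested genes had a lower difference. FASN lies on chromosome 17 (82078333 to 82098332, minus strand), where its neighbours had a median of 0.13 in MCF10DCIS with deposited TPM. Minus its neighbours FASN was at 1.40. FASN alone gave 53.2% of the summed TPM of the 9 fatty acid genes in MCF10DCIS, and 31.0%, 31.5% and 37.7% in MCF10A, MCF10AT1 and MCF10CA1a. FASN was the 1 member counted 2-fold higher in MCF10DCIS than in MCF10A and ACAT2 the 1 counted lower, against 3.56% and 14.8% of all genes. With rescaled TPM 4 members were higher, FASN, ACSS2, FDPS and PMVK, against 7.85% of all genes, and ACAT2 alone was lower, against 10.3%. At 1.5-fold with deposited TPM, 4 members were higher and 8 lower, against 7.17% and 35.4% of all genes, so the share of members on the lower side was under that of all genes.

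ACSS2, which makes acetyl-CoA from acetate, also had its highest level in MCF10DCIS. It was at 26.9 TPM in MCF10A, 33.1 TPM in MCF10AT1, 49.9 TPM in MCF10DCIS and 30.9 TPM in MCF10CA1a. Its difference of 0.87 in MCF10DCIS stood beside a neighbour median of -0.93 on chromosome 20, so ACSS2 went against the genes around it. ACLY, which makes acetyl-CoA from citrate, was at 61.6, 73.8, 59.6 and 62.8 TPM, with no such step in MCF10DCIS. The ratio of ACSS2 to ACLY was 0.838 in MCF10DCIS and lay between 0.436 and 0.492 in the other 3 lines. ACACA, the carboxylase that commits acetyl-CoA to fatty acids, was at 31.4, 24.96, 23.98 and 29.99 TPM. FASN over ACACA was 4.04 in MCF10A, and 6.16, 15.3 and 5.86 in MCF10AT1, MCF10DCIS and MCF10CA1a, so the levels of these successive enzymes were least alike in MCF10DCIS.

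Among the genes that modify fatty acids, SCD was higher than MCF10A in all 3 derived lines. SCD, the stearoyl-CoA desaturase, was at 97.4 TPM in MCF10A, 138 TPM in MCF10AT1, 141 TPM in MCF10DCIS and 126 TPM in MCF10CA1a, with differences of 0.50, 0.53 and 0.37. Its neighbours on chromosome 10 had medians of 0.036 and 0.0061 in MCF10AT1 and MCF10DCIS, but 0.35 in MCF10CA1a, where SCD was level with them. ELOVL6, the elongase of palmitate, was at 20.3, 16.1, 12.6 and 14.5 TPM, with its lowest deposited level in MCF10DCIS. FADS1 and FADS2, the desaturases of polyunsaturated fatty acids, lie next to each other on chromosome 11 and share 490 exon bases on opposite strands. FADS1 was at 10.6, 16.2, 7.39 and 7.84 TPM, highest in MCF10AT1, and FADS2 at 7.14, 5.38, 4.66 and 3.08 TPM, highest in MCF10A. The ratio of FADS1 to FADS2 was 3.02 in MCF10AT1 and 2.54 in MCF10CA1a, against 1.49 in MCF10A, and was 1.59 in MCF10DCIS. The difference of FADS2 in MCF10CA1a was -0.997, just short of the 2-fold rule, with LSS at -1.03 just past it. With 0.1 instead of 1 added to the TPM, the difference of FADS2 was -1.19, past 2-fold.

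LPIN1, a phosphatidate phosphatase and SREBP target, was at 26.8 TPM in MCF10A, 26.6 TPM in MCF10AT1, 24.7 TPM in MCF10DCIS and 14.6 TPM in MCF10CA1a. Like INSIG1, it had similar deposited levels in 3 lines and a low one in MCF10CA1a, with a difference of -0.83 beside a neighbour median of 0.38 on chromosome 2. As a group, the 9 fatty acid genes had median differences of 0.26 in MCF10AT1, -0.11 in MCF10DCIS and -0.062 in MCF10CA1a, against -0.066, -0.38 and -0.074 for all genes. In MCF10CA1a, therefore, the median of the fatty acid genes was close to that of all genes, whereas that of the sterol enzymes differed from it by -0.63. The single fatty acid genes ranged there from -0.997 to 0.47. Minus their neighbours, the fatty acid genes had a median of -0.28, with 6 of 9 lower and 3 higher, and the sterol enzymes one of -0.50. The 9 genes summed to 409, 488, 692 and 466 TPM in MCF10A, MCF10AT1, MCF10DCIS and MCF10CA1a. The summed TPM of fatty acid genes over that of sterol enzymes was 0.361 in MCF10A, and 0.508, 0.776 and 0.712 in MCF10AT1, MCF10DCIS and MCF10CA1a. Without FASN this ratio was 0.249, 0.348, 0.363 and 0.443 in the same order, and MCF10A remained the lowest line.

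**Figure D4:**
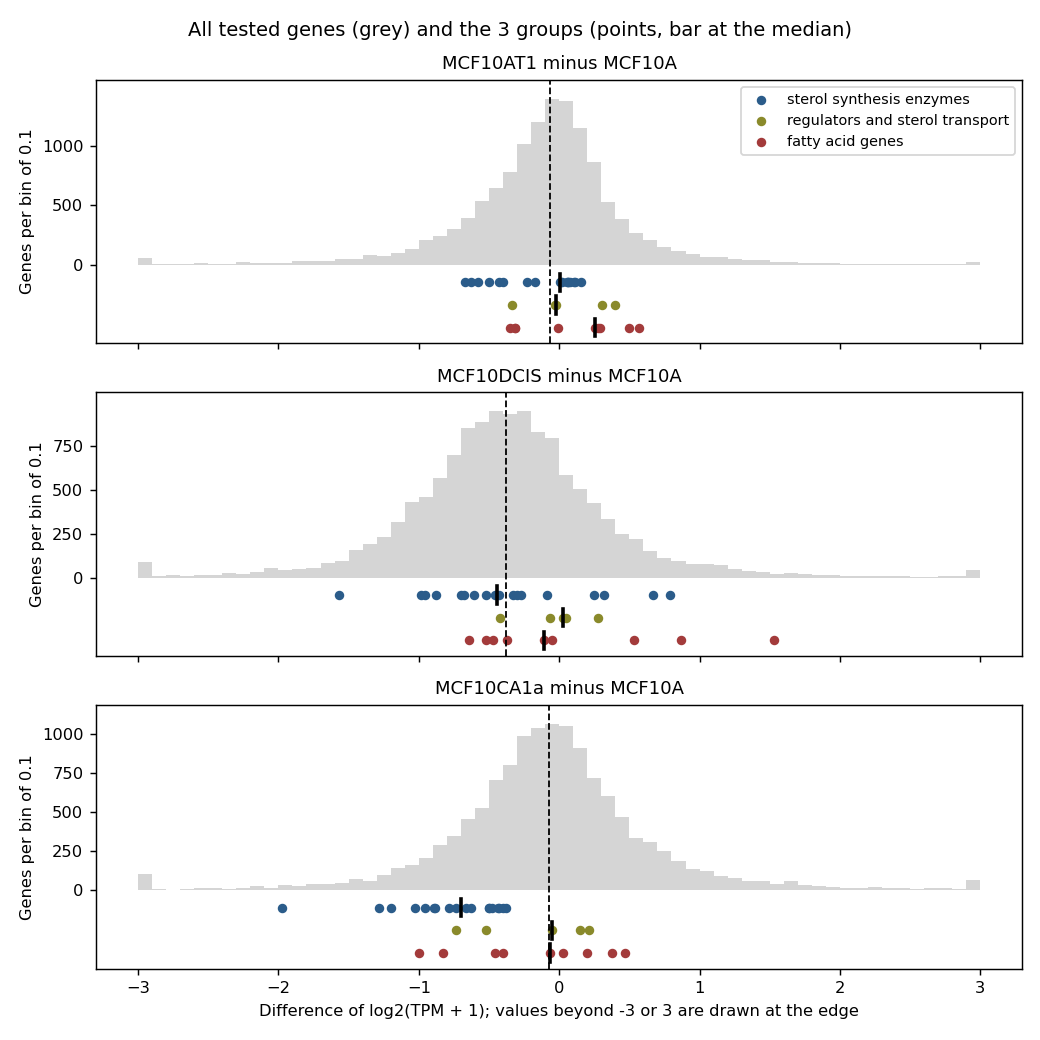
Grey histograms (bins of 0.1) give the differences of log2(TPM + 1) from MCF10A of all 13108 tested genes in each derived line, with the members drawn as points in the colour of their group, a black bar at each group's median and a dashed line at the median of all genes. In MCF10CA1a the sterol enzymes have their median at -0.70 and the fatty acid genes at -0.062.

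In MCF10AT1, the next line after MCF10A in the series, no member was past 2-fold. Of the 32 members 0 were higher and 0 lower at 2-fold, against 3.39% and 5.87% of all genes. At 1.5-fold 0 were higher and 2 lower, ACAT2 and FDFT1, against 8.02% and 15.3% of all genes. The sterol enzymes had a median difference of 0.0078, with 8 of 18 below 0, as were 57.3% of all genes. The largest difference upward was that of FADS1 at 0.57 and the largest downward that of ACAT2 at -0.67.

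Pairs of derived lines do not rest on MCF10A. MCF10CA1a was lower than MCF10DCIS in 15 of the 18 sterol enzymes with deposited TPM, against 20.6% of all genes, and in all 18 with rescaled TPM, against 36.1%. The smallest of these differences were -0.013 for SQLE with deposited TPM and -0.0050 for FDFT1 with rescaled TPM. The median of the enzymes was -0.36, against 0.30 for all genes. It was -0.16 for the fatty acid genes and -0.063 for the regulators. Of these, 8 of 9 and 5 of 5 were below the median of all genes. At 2-fold, FASN (-1.06), FDPS (-1.16) and PMVK (-1.09) were lower and 0 members higher, against 1.35% and 6.03% of all genes. With rescaled TPM 6 members were lower, against 2.89%, and at 1.5-fold with deposited TPM 10 were lower and 0 higher, against 3.42% and 21.7%. FASN, FDPS and PMVK are the genes whose high level in MCF10DCIS is given above. MCF10CA1a was lower than MCF10AT1 in all 18 enzymes, against 50% of all genes, with a median of -0.57 against 0 for all genes. In this pair 7 of 9 fatty acid genes and 5 of 5 regulators were lower too, with medians of -0.15 and -0.19. At 2-fold ACAT2 (-1.30) and LSS (-1.14) were lower and 0 members higher, against 3.97% and 6% of all genes; at 1.5-fold 13 were lower and 0 higher, against 9.09% and 13%. Between MCF10DCIS and MCF10AT1, FASN was higher by 1.25 and FADS1 was lower with a difference of -1.04, against 3.23% and 7.51% of all genes. No other member was past 2-fold in this pair, and with rescaled TPM FADS1 was not, against 7.45% of all genes counted lower on that scale. At 1.5-fold 3 members were higher and 5 lower, against 7.2% and 26% of all genes.

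Genes next to the pathway were read from 6 further lists with 72 genes, 61 of which passed the filter. Other genes of sterol and isoprenoid synthesis had a median difference of -0.27 in MCF10AT1, -0.64 in MCF10DCIS and -0.69 in MCF10CA1a over 8 genes, against -0.066, -0.38 and -0.074 for all genes. At 2-fold 0 of the 8 were higher in these lines, against 3.39%, 3.56% and 5.97% of all genes. In the same order 1, 1 and 2 of the 8 were lower, against 5.87%, 14.8% and 7.14%. Among the 8, ERG28, a scaffold of the C4-demethylation enzymes known from yeast, was at 21.0 TPM in MCF10A, 16.3 TPM in MCF10AT1, 8.82 TPM in MCF10DCIS and 8.89 TPM in MCF10CA1a. Its differences of -1.17 in MCF10DCIS and -1.16 in MCF10CA1a were past 2-fold, but with rescaled TPM, at -0.86 and -1.07, only the one in MCF10CA1a was. Genes of sterol uptake, sensing and SREBP processing had medians of -0.098, -0.54 and 0.11 in the same order over 12 genes. Of the 12, 0 were higher, and those lower numbered 0, 4 and 1, against the same shares of all genes as above. With rescaled TPM 1 was lower and 1 higher in MCF10DCIS, against 10.3% and 7.85% of all genes. INSIG2, the paralog of INSIG1, was at 3.73 TPM in MCF10DCIS against 9.32 TPM in MCF10A, and at 10.5 TPM in MCF10CA1a. INSIG1 and INSIG2 thus had their lowest levels in different lines, though 57.3% of all genes were lowest in MCF10DCIS with deposited TPM. The difference of INSIG2 in MCF10DCIS from MCF10A was -1.12, or -0.90 with rescaled TPM, short of 2-fold.

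For the 6 genes of sterol efflux and LXR the medians were 0.020, -0.37 and 0.11 in the same order of lines. The exporter ABCG1 was at 1.62 TPM in MCF10CA1a against 0.0635 TPM in MCF10A. It passed the filter through MCF10CA1a alone, so its higher level there follows from the filter and is not counted as a result. The 15 other genes of fatty acid synthesis and elongation had medians of 0.0079, -0.34 and -0.0031. With deposited TPM 0 were higher and 2 lower in MCF10AT1, against 3.39% and 5.87% of all genes. In MCF10DCIS 1 was higher and 3 were lower, against 3.56% and 14.8%, and in MCF10CA1a 2 were higher and 1 lower, against 5.97% and 7.14%. With rescaled TPM 2 were higher and 2 lower in MCF10DCIS, against 7.85% and 10.3%. More were counted higher on that scale in MCF10AT1 and MCF10CA1a too, with no share of all genes given. SCD5, the second stearoyl-CoA desaturase, was at 1.01 TPM in MCF10A, 2.93 TPM in MCF10AT1, 3.54 TPM in MCF10DCIS and 5.86 TPM in MCF10CA1a, well under SCD in each line. ELOVL4, an elongase of very long chains, was at 4.53 TPM in MCF10CA1a against 0.556 TPM in MCF10A, where it was under the filter of 1 TPM. HSD17B12, the keto-reductase of the elongation cycle, was lower in all 3 derived lines, with 50.6, 19.1, 17.7 and 16.8 TPM.

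Of 11 genes of fatty acid activation, glycerolipids and lipid droplets, 2, 5 and 4 were lower in MCF10AT1, MCF10DCIS and MCF10CA1a with deposited TPM, against 5.87%, 14.8% and 7.14% of all genes. With deposited TPM 0 were higher in these lines, against 3.39%, 3.56% and 5.97%. With rescaled TPM 4 of the 11 were lower in MCF10DCIS and 4 in MCF10CA1a, against 10.3% and 7.77% of all genes. On that scale GPAM passed 2-fold upward in MCF10AT1, at 1.09, and DGAT2 in MCF10CA1a, at 1.41. No share of all genes counted higher there is given, so these 2 calls cannot be placed. The deposited levels of both genes were low: GPAM was at 1.53 TPM in MCF10A and 3.32 TPM in MCF10AT1. DGAT2 was at 1.19 TPM in MCF10A and 3.37 TPM in MCF10CA1a. Both genes are named after their values were seen. The medians of the 11 genes were -0.065, -0.71 and -0.44, against -0.066, -0.38 and -0.074 for all genes. ACSL1, an acyl-CoA synthetase, was at 106 TPM in MCF10A, 45.5 TPM in MCF10AT1, 26.4 TPM in MCF10DCIS and 13.2 TPM in MCF10CA1a. Its level was lower in each later line, as that of ACAT2 was. DGAT1, which completes triglycerides, was at 24.3, 9.05, 8.94 and 9.20 TPM, with the 3 derived lines alike and below MCF10A. Of 9 genes of fatty acid uptake and oxidation, 1 was higher in MCF10AT1 and in MCF10CA1a, against 3.39% and 5.97% of all genes, and 0 were lower in any derived line, with medians of -0.078, -0.22 and 0.17. The gene counted higher in both, and with rescaled TPM also in MCF10DCIS at 1.21, against 7.85% of all genes, was FABP5. This fatty acid carrier of epithelia was at 16.2, 35.9, 29.3 and 57.5 TPM.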

How the data were processed

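The authors deposited 1 table of mean TPM per line, each column summing to 1000000; the labels give 12 stranded total-RNA libraries, 3 per line. STAR and edgeR were used and the build was hg38, per the submitters' processing notes; the quantifier, versions, annotation and strand handling were not given in the sources used here. No counts were used here, so the depth is unknown.

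From the deposited TPM, log2(TPM + 1) differences were computed in Python 3.11.15 (pandas 2.3.3, numpy 2.4.6) over the 13108 symbols with at least 1 TPM in at least 1 line (12911 with rescaled TPM); 26189 were at 0 in all lines. With means alone a limma test was not possible, so a rule of 2-fold stands in its place. Neighbour medians were taken with deposited TPM from the 50 nearest tested genes on the same chromosome (GENCODE release 29, GRCh38). In that release 54529 symbols were found, and 12679 tested symbols had 1 position. The code was tested on simulated data. The members and lists were chosen with earlier results of these data known. All 32 members could be named; of the 6 other lists, the 2 with the largest counted difference in each direction. Some genes of these lists are not reported here. Alternatives were a pseudocount of 0.1, no filter, a filter of 5 TPM, a 1.5-fold rule, 3 other scalings and subtraction of the neighbour median.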

Additional observations from a re-analysis of the deposited data

How the results depend on the processing

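No paired analysis was possible because the deposited columns are means per line and carry no replicate numbers; leaving out a library was not possible for the same reason. Of the 8 alternatives, dropping the filter and a filter of 5 TPM moved no group median by 0.25 and no count of members by 1.5 times. A pseudocount of 0.1 moved 1 count by more than 1.5 times, members lower in MCF10DCIS than in MCF10A, to 2. With it TM7SF2 (-1.10) and FADS2 (-1.19) also passed 2-fold in MCF10CA1a against MCF10A. FADS1 (-1.04) did so in MCF10CA1a against MCF10AT1. No called difference changed sign. Medians of MCF10AT1 and MCF10CA1a against MCF10A and of MCF10CA1a against MCF10AT1 moved by less than 0.25 under every scaling.

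The medians that moved were those with MCF10DCIS. Against MCF10A, with rescaled TPM, median-of-ratios scaling and quantile normalization, they were -0.080, 0.0074 and -0.051 for sterol enzymes, 0.40, 0.48 and 0.47 for regulators and 0.25, 0.33 and 0.28 for fatty acid genes; minus the neighbour median, sterol enzymes were at -0.0038 and regulators at 0.38. For MCF10DCIS against MCF10AT1, median-of-ratios and quantile values were 0.046 and -0.044, 0.27 and 0.16, and 0.26 and 0.17 in the same order of groups, and minus neighbours sterol enzymes were at -0.0064 and regulators at 0.30. For MCF10CA1a against MCF10DCIS they were -0.72 and -0.69, -0.43 and -0.37, and -0.52 and -0.43, and minus neighbours -0.66 for sterol enzymes and -0.34 for regulators. Signs of group medians in MCF10DCIS thus rest on the scaling; of the 32 single members, 7 changed sign against MCF10A with rescaled TPM and 10 with median-of-ratios scaling.

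Counts under the 1.5-fold rule were 2 lower in MCF10AT1, 4 higher and 8 lower in MCF10DCIS and 14 lower in MCF10CA1a against MCF10A; 3 higher and 5 lower for MCF10DCIS against MCF10AT1; and 13 and 10 lower for MCF10CA1a against MCF10AT1 and MCF10DCIS. MCF10DCIS had 4 members higher than MCF10A under each of the 3 other scalings and 2 minus neighbours. Against MCF10AT1 it had 2 higher with median-of-ratios scaling and minus neighbours, and 0 lower under all 3 scalings and minus neighbours. MCF10CA1a had 6 members lower than MCF10DCIS with rescaled TPM and 10 with median-of-ratios scaling or quantile normalization, and 2 lower than MCF10A minus neighbours. The cause of these moves was not tested. No share of all genes is given for median-of-ratios scaling, quantile normalization, subtraction of the neighbour median or the smaller pseudocount. Whether the counts of members under those settings exceed the share of all genes therefore cannot be told. TPM keeps no depth, so the precision of levels near the filter is unknown.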
